A study of Mus musculus with 15 samples.

Results

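The 63 splicing factor genes described here are the rows of the deposited mouse expression table whose symbols begin with Snrp, Snrnp, Sf3a, Sf3b, Srsf, Prpf or Lsm followed by a digit. They are 63 of the 12798 genes in the table, and all 63 passed the filter on low values that left 12572 genes for testing. The rule used names alone and no measured value. By role they comprise 7 Sm core genes, 6 genes of the U1 particle, 11 of the U2 particle and its SF3a and SF3b complexes, 13 of the tri-snRNP, the B complex and the Prpf19 complex, 3 of the minor spliceosome, 13 Lsm genes and 10 SR protein genes.

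Pre-mRNA splicing is carried out by the spliceosome, which assembles anew on each intron from small nuclear ribonucleoproteins (snRNPs). The U1 snRNP recognises the 5′ splice site and the U2 snRNP, through its SF3a and SF3b complexes, the branch point, before the U4/U6.U5 tri-snRNP joins and the complex is rearranged for catalysis. Sm proteins form a ring on most spliceosomal RNAs and Lsm proteins form the corresponding ring on U6, while SR proteins bind exons and help to bring the snRNPs to nearby splice sites. The name pattern also takes in relatives with other duties: Lsm1 acts in mRNA decay, Lsm10 and Lsm11 in the U7 particle of histone mRNA processing, and Lsm14a and Lsm14b in cytoplasmic mRNP granules.

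Messenger RNA was sequenced in 15 libraries of progenitors sorted from the bone marrow of C57BL/6 mice, in 6 groups along early innate lymphoid cell (ILC) development, and all groups were sorted as Lin- Kit+ 2B4+ cells. ALP.WT (n = 3) held a4b7- Flt3high IL-7Ra+ cells, the all-lymphoid progenitors, and ILCP.WT (n = 2) held a4b7+ Tcf7+ Thy1+ IL-7Ra+ cells, the ILC precursors, both from Tcf7EGFP/+ reporter animals. Cells of the intermediate stage, a4b7+ Tcf7+ Thy1- early innate lymphoid progenitors (EILPs), came from Tcf7EGFPnull/+ animals in EILP.WT (n = 3), which therefore carried 1 null allele, and from Tcf7EGFPnull/- animals in EILP.KO (n = 2). The last pair of groups divided the same gate in Tcf7GFP Zbtb16GFP animals into Zbtb16low Flt3high cells, s-EILP.WT (n = 2), and Zbtb16high Flt3low cells, c-EILP.WT (n = 3). Every cell sorted thus carried a reporter allele, and ages and sexes were not given. The reporter strain of each EILP group differs from that of ALP.WT and ILCP.WT. Strain and stage therefore cannot be told apart in comparisons of an EILP group with either, whereas ALP.WT and ILCP.WT share a genotype. The labels do not say that replicates came from separate animals, so p-values measure the spread between these libraries, which may be technical, and in sorted bulk samples fewer cells with a transcript and less transcript per cell cannot be told apart.

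Tcf7, the targeted gene, was 6.97 and 7.65 on the log2 scale in EILP.KO against 9.89, 10.81 and 11.14 in EILP.WT, and between 1.91 and 2.64 in ALP.WT. Values are log2 expression in CPM, counts scaled to a common library total, so a log2 difference of 0 means equal levels and a negative one a lower level in the group named first. Between 747 and 2575 of the 12798 genes lay at a library's lowest value, with the highest number in EILP.WT replicate 3. Markers of the sort followed the labels: Flt3 was between 10.53 and 10.98 in ALP.WT and -0.14 and 3.98 in ILCP.WT, Thy1 was 4.99 and 4.85 in ILCP.WT and at most 2.46 elsewhere, and Zbtb16 was 4.28 and 4.60 in s-EILP.WT and between 6.71 and 6.96 in c-EILP.WT. EILP.WT replicate 3 and both ILCP.WT libraries also stood apart by the summed level of 5 listed genes of mature natural killer cells. The sum was 139 and 223 CPM in ILCP.WT, between 3.04 and 244 in EILP.WT and at most 25.9 in any library of the other 4 groups. In those 4 groups Ncr1 was at a library's lowest value in 9 of 10 libraries. The ILCP.WT sum came from Ncr1, Klrb1c and Eomes. Prf1 and Gzma were at the lowest value in both ILCP.WT libraries, and Prf1 averaged 2.04 in ALP.WT.

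Of the 63 splicing factor genes, 15, 7 and 9 fell in ILCP.WT against ALP.WT, EILP.WT and c-EILP.WT, and 0 rose, while the other 4 comparisons held 1 call in all. Over all genes tested, 7.86%, 4.34% and 4.72% fell in the 3 comparisons with ILCP.WT. The summed level of the 63 genes, converted back from log2, was 7710 and 8110 CPM in the ILCP.WT libraries and between 9856 and 12052 in the other 13. In ILCP.WT against ALP.WT, 15 of the 63 fell, 0 rose and 48 did not pass the test, where 7.86% of all genes tested fell and 5.56% rose. Their median log2 difference was -0.48 and 55 of 63 were negative, against a median of -0.09 over all genes. Both ILCP.WT libraries lay below all 13 others for 19 of the 63 genes, a pattern found in 6.81% of all genes tested, and both lay above all 13 others for 0 of the 63, against 7.57% of all genes tested. The 3 comparisons with ILCP.WT share its 2 libraries, and their values are therefore given side by side.

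**Figure D1:**
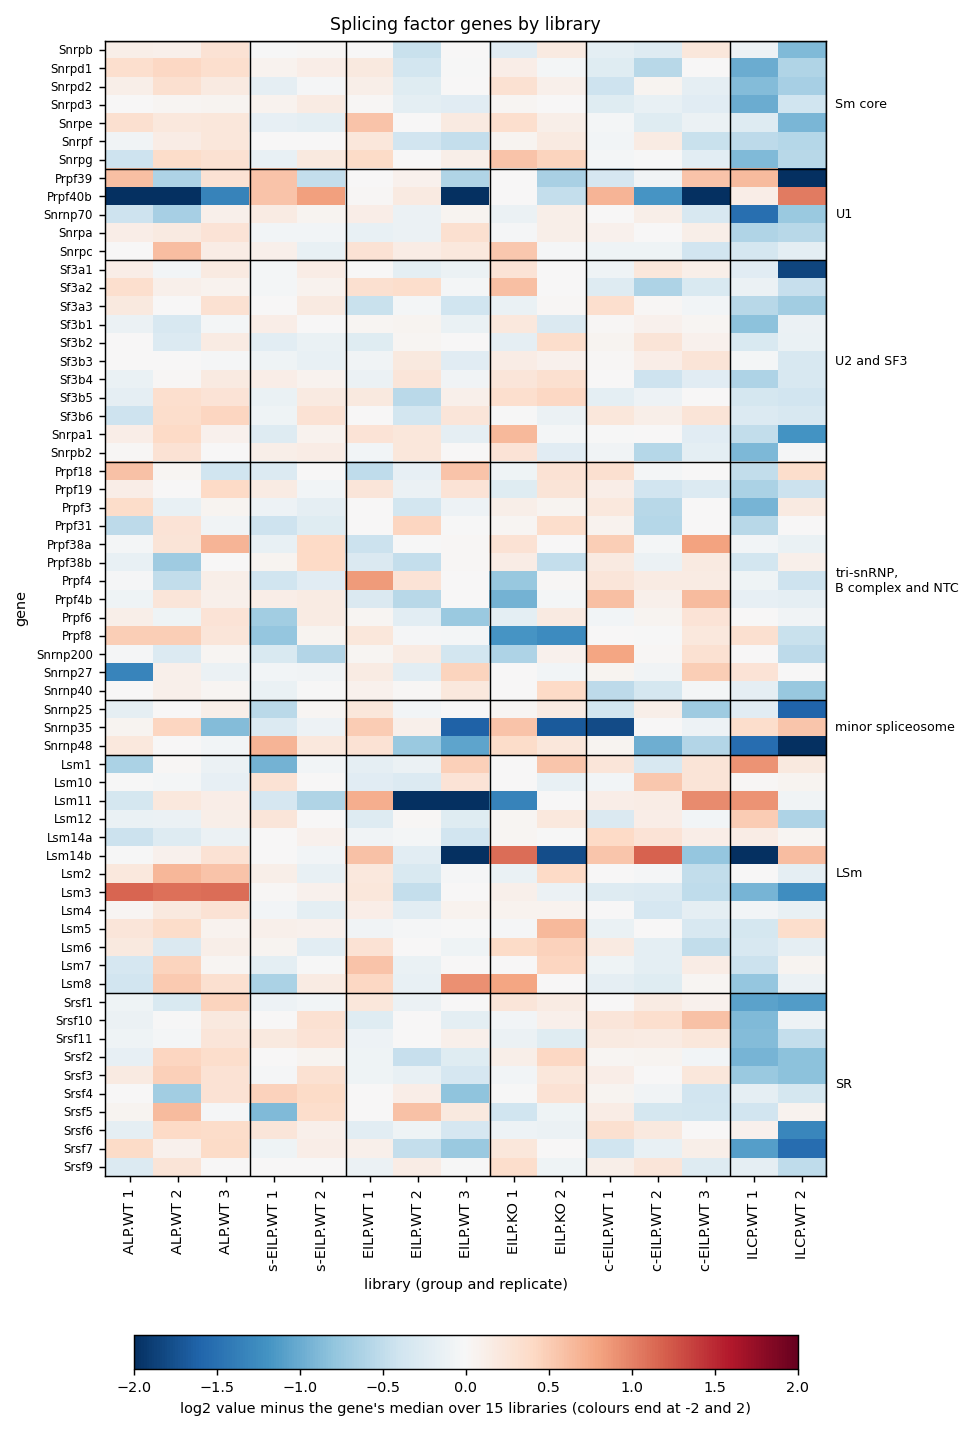
Each row is 1 of 62 of the 63 splicing factor genes, grouped by role, and each column 1 of the 15 libraries; colour gives the log2 value minus the gene's median over the 15 libraries, ending at -2 and 2. The 2 ILCP.WT columns on the right are blue across most Sm core, U2 and SF3 and SR genes, and the 3 ALP.WT columns are red for Lsm3.

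After Lsm3, the smallest p-values in ILCP.WT against ALP.WT were those of the SR protein genes Srsf3, Srsf7 and Srsf2. Of the 10, 5 fell in ILCP.WT against ALP.WT (Srsf1, Srsf2, Srsf3, Srsf7 and Srsf11), 4 against EILP.WT (Srsf2, Srsf3, Srsf7 and Srsf11) and 6 against c-EILP.WT (the 5 named first and Srsf10). Over all genes tested, 7.86%, 4.34% and 4.72% fell in the same order. The median log2 difference of the 10 was -0.76, -0.52 and -0.90 in the 3 comparisons. Gene positions are given on GRCm38 (mm10) from the GENCODE annotation.

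Srsf3 (chr17:29032628-29043373, plus strand, 6 exons in its main transcript), a small shuttling SR protein that also serves in mRNA export, had log2 values of 9.76, 10.06 and 9.88 in ALP.WT, 9.57 and 9.90 in s-EILP.WT, 9.50, 9.45 and 9.26 in EILP.WT, 9.54 and 9.81 in EILP.KO, 9.72, 9.59 and 9.82 in c-EILP.WT, and 8.84 and 8.76 in ILCP.WT. Both ILCP.WT libraries lay below every other library. The log2 difference was -1.09 (SE 0.148, adjusted p = 0.000641) against ALP.WT, a 2.13-fold lower level, -0.61 (SE 0.148, adjusted p = 0.0286) against EILP.WT and -0.92 (SE 0.148, adjusted p = 0.00308) against c-EILP.WT.

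Srsf7 (chr17:80200080-80207307, minus strand, 8 exons in its main transcript), a close relative of Srsf3 with a zinc knuckle, had log2 values of 9.39, 9.08 and 9.38 in ALP.WT, 8.91 and 9.14 in s-EILP.WT, 9.09, 8.53 and 8.26 in EILP.WT, 9.22 and 9.0 in EILP.KO, 8.60, 8.85 and 9.12 in c-EILP.WT, and 7.90 and 7.48 in ILCP.WT. The ILCP.WT libraries were again the lowest, and EILP.WT replicates 2 and 3 came next. Its log2 difference was -1.62 (SE 0.232, adjusted p = 0.000886) against ALP.WT, which is 3.08-fold, -0.91 (SE 0.232, adjusted p = 0.036) against EILP.WT and -1.14 (SE 0.232, adjusted p = 0.0122) against c-EILP.WT.

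Srsf2 (chr11:116849901-116853094, minus strand, 3 exons in its main transcript), which binds exonic splicing enhancers, had log2 values of 8.47, 9.07 and 8.99 in ALP.WT, 8.64 and 8.70 in s-EILP.WT, 8.56, 8.18 and 8.39 in EILP.WT, 8.75 and 9.05 in EILP.KO, 8.67, 8.69 and 8.58 in c-EILP.WT, and 7.71 and 7.82 in ILCP.WT. No library of another group came as low as ILCP.WT. The log2 difference was -1.05 (SE 0.173, adjusted p = 0.00221) against ALP.WT, -0.64 (SE 0.173, adjusted p = 0.0463) against EILP.WT and -0.91 (SE 0.173, adjusted p = 0.00832) against c-EILP.WT. Exons of Mettl23 and Mfsd11 on the opposite strand cover up to 24.2% of its exonic bases, and the library kit does not keep the strand, so reads there cannot be assigned to 1 gene.

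Srsf11 (chr3:158010473-158036639, minus strand, 13 exons in its main transcript), another SR protein gene, had log2 values of 8.10, 8.15 and 8.43 in ALP.WT, 8.39 and 8.47 in s-EILP.WT, 8.08, 8.19 and 8.29 in EILP.WT, 8.07 and 7.95 in EILP.KO, 8.37, 8.35 and 8.42 in c-EILP.WT, and 7.33 and 7.71 in ILCP.WT. Its ILCP.WT values were below all others by a smaller margin. The log2 difference was -0.68 (SE 0.151, adjusted p = 0.0116) against ALP.WT, -0.69 (SE 0.151, adjusted p = 0.0175) against EILP.WT and -0.88 (SE 0.151, adjusted p = 0.00434) against c-EILP.WT.

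Srsf1, the prototype of the family, was 4.49 and 4.45 in ILCP.WT against 5.48, 5.26 and 6.01 in ALP.WT and between 5.45 and 5.81 in the 10 EILP libraries. The ILCP.WT values lay apart from all others, with a log2 difference of -1.11 (SE 0.316, adjusted p = 0.0368) against ALP.WT and -1.18 (SE 0.316, adjusted p = 0.0426) against c-EILP.WT, while -1.13 (SE 0.316, adjusted p = 0.0524) against EILP.WT did not pass. Srsf10, an SR protein that can repress splicing when dephosphorylated, was 6.96 and 7.74 in ILCP.WT against 8.09, 8.19 and 8.43 in c-EILP.WT. It fell against c-EILP.WT, with a log2 difference of -0.93 (SE 0.198, adjusted p = 0.0151), and did not pass against ALP.WT, where its libraries overlapped (-0.48, adjusted p = 0.142). Srsf4, Srsf5, Srsf6 and Srsf9 passed in none of the 3 comparisons. For Srsf4, exons of Gm12992 on the opposite strand cover up to 67.9% of the exonic bases. Srsf6 was 8.41 and 7.02 in the 2 ILCP.WT libraries, so that replicate 1 lay among the earlier stages and replicate 2 below them all.

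**Figure D2:**
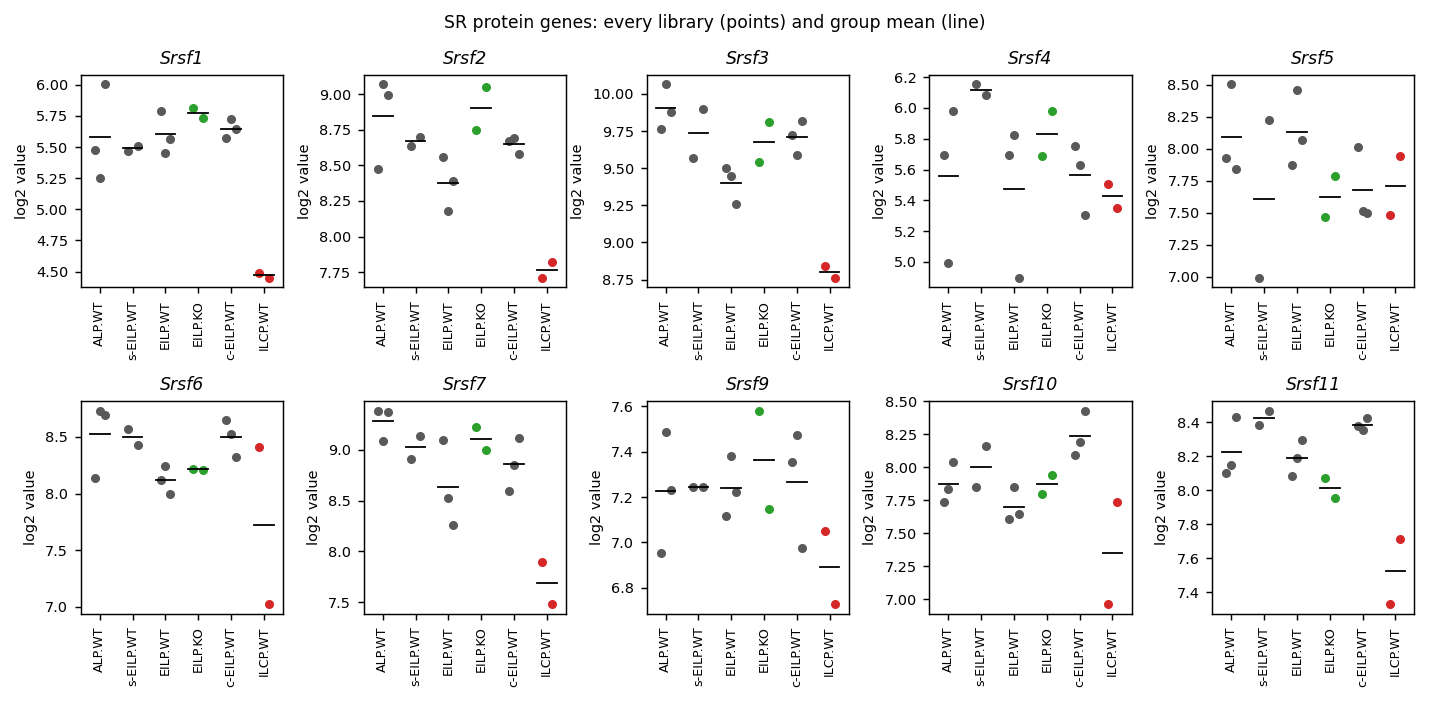
Log2 value of the 10 SR protein genes in each library (points) of the 6 groups, with the group mean (line); each panel has its own vertical axis, ILCP.WT is red and EILP.KO green. In Srsf1, Srsf2, Srsf3, Srsf7 and Srsf11 both ILCP.WT points lie below all 13 others, whereas Srsf4 and Srsf5 overlap.

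The regions upstream of Srsf2 and Srsf7 are shown because both genes fell in each comparison with ILCP.WT and their RefSeq starts lie at a GENCODE transcript start. Each is the 200 bases before the RefSeq start (GRCm38.p6), 5′ to 3′ on the gene's strand, and capitals mark the motifs found: in Srsf2 the CCAAT box, the ETS core CCGGAA (here as its reverse complement) and TATAAA, and in Srsf7 the NRF1 core GCGCATG (reverse complement).
Srsf2, chr11:116853095-116853294, minus strand: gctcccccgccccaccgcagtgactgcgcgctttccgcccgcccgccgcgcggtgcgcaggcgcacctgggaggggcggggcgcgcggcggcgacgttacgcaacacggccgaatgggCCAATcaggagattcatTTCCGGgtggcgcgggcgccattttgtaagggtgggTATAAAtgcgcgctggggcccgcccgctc
Srsf7, chr17:80207306-80207505, minus strand: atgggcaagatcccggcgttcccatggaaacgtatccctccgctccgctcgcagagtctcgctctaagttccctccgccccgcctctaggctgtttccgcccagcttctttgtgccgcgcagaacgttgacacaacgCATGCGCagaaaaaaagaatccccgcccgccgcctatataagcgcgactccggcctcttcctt
The first base of each motif lies at -82, -65 and -29 in Srsf2 and at -63 in Srsf7, counted from the start. Motifs were searched on both strands in the 53 of 63 genes with an entry, and in the 9271 genes of the table with one. For the 53 the RefSeq start nearest the start of the main GENCODE transcript was used. For the other genes it was the first RefSeq start listed, so the percentages rest on unlike choices of start. The ETS core was present in 39.6% of the 53 and in 21.2% of the 9271, CCAAT in 35.8% and 33.3%, TATAAA in 7.55% and 4.23%, GCGCATG in 9.43% and 5.68%, and the TCF core CTTTGA in 7.55% and 8.06%. The other motifs searched were CACGTG (5.66% and 7.47%), TGACGTCA (3.77% and 2.77%), TTCCCGC (13.2% and 6.17%) and AAGATGGC (0% and 1.77%), and no motif of the 9 contains another. Of the 10 SR genes, 4 held the ETS core (Srsf1, Srsf2, Srsf5 and Srsf11) and none held CTTTGA. Among the 16 genes with an entry that fell in at least 1 comparison with ILCP.WT, 7 held the ETS core and 3 held CTTTGA. These letter matches are a description of the windows and not of binding.

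The Sm core genes, whose proteins form the heptameric ring of the snRNPs, were all negative in each comparison with ILCP.WT. Against ALP.WT 4 of 7 fell (Snrpd1, Snrpd2, Snrpd3 and Snrpe), where 7.86% of all genes tested fell, and the median log2 difference of the 7 was -0.78. Against EILP.WT and c-EILP.WT 0 of 7 passed by limma, with 5 and 4 at an unadjusted p under 0.05 and medians of -0.73 and -0.50. Of the 12572 genes tested, 2807 and 2787 had such an unadjusted p in these 2 comparisons. Snrpe did pass against EILP.WT without the batch term, with the replicate number as a block and with a stricter filter on low values.

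Snrpd1 was 5.74 and 6.13 in ILCP.WT against 7.07, 7.16 and 7.08 in ALP.WT, with a log2 difference of -1.14 (SE 0.236, adjusted p = 0.0084). The EILP libraries lay between the 2 groups, from 6.19 to 6.93. Snrpd2 was 5.61 and 5.80 in ILCP.WT against 6.59, 6.80 and 6.65 in ALP.WT, a log2 difference of -0.97 (SE 0.233, adjusted p = 0.0174). Snrpd3, the third of the SmD proteins, was 6.71 and 7.30 in ILCP.WT against 7.70, 7.74 and 7.75 in ALP.WT, with a log2 difference of -0.71 (SE 0.184, adjusted p = 0.0235). Its 2 ILCP.WT libraries differed by more than any other pair within a group. Snrpe was 6.51 and 5.87 in ILCP.WT against 7.10, 7.0 and 7.01 in ALP.WT, a log2 difference of -0.88 (SE 0.228, adjusted p = 0.0245). Snrpb, Snrpf and Snrpg did not pass, with log2 differences of -0.64, -0.67 and -0.78, although Snrpf and Snrpg were lower in both ILCP.WT libraries than in all 13 others. Snrpd1 and Snrpe each have 1 near-identical pseudogene copy in the annotation, which could take up some of their reads. Exons of other genes on the opposite strand cover up to 65.9% of the exonic bases of Snrpf, which also has 1 near-identical copy. Reads there cannot be assigned to 1 gene.

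Among the genes of the U1 particle, 1 of 6 fell against ALP.WT, 1 against EILP.WT and 2 against c-EILP.WT. The shares of all genes tested that fell were 7.86%, 4.34% and 4.72%. Snrnp70 (chr7:45376453-45395742, minus strand, 10 exons in its main transcript), the U1-70K protein that contacts SR proteins, had log2 values of 6.79, 6.55 and 7.32 in ALP.WT, 7.38 and 7.26 in s-EILP.WT, 7.35, 7.09 and 7.27 in EILP.WT, 7.09 and 7.33 in EILP.KO, 7.21, 7.33 and 6.89 in c-EILP.WT, and 5.70 and 6.46 in ILCP.WT. Both ILCP.WT libraries were the lowest of the 15, but ALP.WT replicates 1 and 2 were also below the EILP libraries. Its log2 difference was -1.17 (SE 0.277, adjusted p = 0.0252) against EILP.WT and -1.08 (SE 0.277, adjusted p = 0.0362) against c-EILP.WT, and it did not pass against ALP.WT (-0.78, adjusted p = 0.0854). Snrpa, the U1 protein that binds a stem-loop of the RNA, was 6.40 and 6.44 in ILCP.WT against 7.12, 7.17 and 7.27 in ALP.WT. It had a log2 difference of -0.74 (SE 0.177, adjusted p = 0.0172) against ALP.WT and -0.67 (SE 0.177, adjusted p = 0.0408) against c-EILP.WT, and has 2 pseudogene copies. Prpf39, a U1-associated factor, was 6.45 and 2.07 in the 2 ILCP.WT libraries, which straddled all the others.

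In the U2 particle and its SF3 complexes all 11 genes were negative against ALP.WT and EILP.WT and 10 against c-EILP.WT. Of these, 3 fell against ALP.WT (Snrpa1, Sf3a1 and Sf3a3), 1 against EILP.WT (Snrpa1) and 1 against c-EILP.WT (Sf3a3). The shares over all genes tested were 7.86%, 4.34% and 4.72%. Snrpa1 (chr7:66059003-66074587, plus strand, 9 exons in its main transcript), a U2-specific protein that pairs with Snrpb2, was 6.47 and 5.76 in ILCP.WT against 7.10, 7.36 and 7.05 in ALP.WT, with a log2 difference of -1.11 (SE 0.232, adjusted p = 0.00859). Against EILP.WT it was -0.89 (SE 0.232, adjusted p = 0.0391). Sf3a3 (chr4:124714776-124732460, plus strand, 17 exons in its main transcript), a subunit of the SF3a complex that brings U2 to the branch point, was 7.36 and 7.21 in ILCP.WT against 8.10, 7.92 and 8.21 in ALP.WT. Its log2 difference was -0.81 (SE 0.184, adjusted p = 0.0133) against ALP.WT and -0.71 (SE 0.184, adjusted p = 0.0384) against c-EILP.WT. Sf3a1 of the same complex was 7.62 and 6.01 in ILCP.WT against 7.97, 7.79 and 8.03 in ALP.WT, a log2 difference of -1.17 (SE 0.313, adjusted p = 0.0279). Replicate 1 lay close to the lowest of the other libraries and replicate 2 far below it. The SF3b genes, including Sf3b1, which holds the branch point in the U2 particle, had no call in any of the 3 comparisons with all libraries; without ILCP.WT replicate 2, Sf3b1 fell in each of the 3, by 0.77, 0.87 and 0.93 against ALP.WT, EILP.WT and c-EILP.WT.

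The genes of the tri-snRNP, the B complex and the Prpf19 complex did not pass in any ILCP.WT comparison. By limma 0 of 13 passed in each of the 3, with 2 at an unadjusted p under 0.05 in each. Of the 12572 genes tested, 3338, 2807 and 2787 had such an unadjusted p against ALP.WT, EILP.WT and c-EILP.WT. The median log2 differences of the 13 were -0.19, -0.09 and -0.23 in the same order. Prpf19, the ubiquitin ligase of the complex that bears its name, was 7.31 and 7.52 in ILCP.WT against 8.09, 7.95 and 8.35 in ALP.WT and came closest (-0.69, adjusted p = 0.0543). It did pass by limma against ALP.WT without the batch term (adjusted p = 0.0459) and with a stricter filter on low values (adjusted p = 0.048). Snrnp48, 1 of the 3 minor spliceosome genes, was 2.24 and -4.54 in ILCP.WT against 3.97, 3.76 and 3.71 in ALP.WT. It passed against ALP.WT (adjusted p = 0.0257), but ILCP.WT replicate 2 was at that library's lowest value, so no fold is given.

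**Figure D3:**
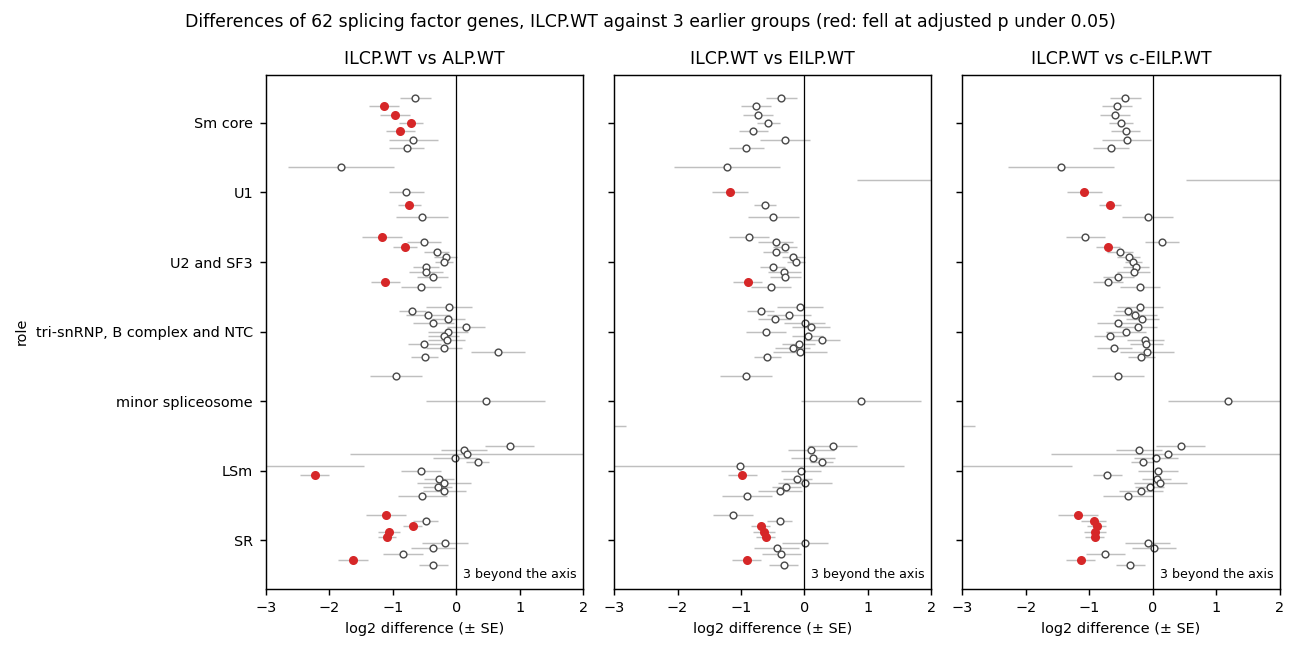
Log2 difference (± SE from the fit) of 62 of the 63 genes in ILCP.WT against ALP.WT, EILP.WT and c-EILP.WT, by role; red points fell at an adjusted p under 0.05, and 3 genes per panel lie beyond the axis (-3 to 2). All 15, 7 and 9 red points lie left of 0, with that of Snrnp48 against ALP.WT beyond the axis, and the 13 genes of the tri-snRNP, B complex and Prpf19 complex have none.

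Against EILP.WT 7 of the 63 fell and 0 rose, where 4.34% of all genes tested fell and 2.61% rose, and the median log2 difference was -0.38 against -0.06 over all genes. The count was 1 without EILP.WT replicate 1 and 3 without EILP.WT replicate 3. None of the genes called with all libraries kept its call without ILCP.WT replicate 1, which leaves 1 library in that group. Other genes were called there instead. Against c-EILP.WT 9 fell and 0 rose, where 4.72% of all genes fell and 2.69% rose, with a median of -0.39 against -0.07. That count was 5, 5 and 4 without c-EILP.WT replicates 1, 2 and 3. Against ALP.WT the count was 10 without ALP.WT replicate 3, and 1 of the 10 rose, Prpf40b. The genes called against ALP.WT also changed with the library left out, as given below.

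Libraries decided single calls to different degrees. Against ALP.WT, Lsm3, Srsf2, Srsf3 and Srsf7 passed without any 1 of the 5 libraries. Srsf11 and Snrpd1 did not pass without ILCP.WT replicate 1, and Snrpa1 and Sf3a3 without ILCP.WT replicate 2. Without ALP.WT replicate 2 or 3 or ILCP.WT replicate 2, Sf3a1 and Snrnp48 did not pass. Snrpa, Snrpd2, Snrpd3, Snrpe and Srsf1 each lost the call without 3 or 4 of the 5, with adjusted p reaching 0.134, 0.189, 0.209, 0.380 and 0.223 over all alternatives. Against c-EILP.WT, Srsf2 and Srsf3 passed without any 1 library. Srsf11 lost the call without ILCP.WT replicate 1, Srsf7 without c-EILP.WT replicate 3 or ILCP.WT replicate 2, and Srsf10 without c-EILP.WT replicate 3 or ILCP.WT replicate 1. For Snrnp70 it was c-EILP.WT replicate 1 or 2 or ILCP.WT replicate 1, and Srsf1, Sf3a3 and Snrpa lost it without each of the 5. Against EILP.WT, Srsf11 lost its call without ILCP.WT replicate 1 and the 6 others without at least 3 of the 5 libraries, Snrpa1 and Srsf2 without each. Some calls were gained with a library left out. Without ILCP.WT replicate 1, Prpf39, Snrpb and Srsf6 fell in all 3 comparisons, and Snrnp40 of the tri-snRNP fell against ALP.WT (-0.88) and EILP.WT (-1.02). Without ILCP.WT replicate 2, Snrpd3 fell against EILP.WT (-0.87) and c-EILP.WT (-0.80), and Snrnp70 (-1.19) and Srsf10 (-0.82) fell against ALP.WT.

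Within the batches named in the labels, each of which held 1 ILCP.WT library, the median log2 difference of the 63 genes against ALP.WT was -0.35 in batch 1 and -0.53 in batch 2, with 49 and 51 negative. Against EILP.WT it was -0.31 and -0.30, and against c-EILP.WT -0.31 and -0.42. Over all genes tested the medians were 0.04 and -0.04 against ALP.WT, 0.01 and -0.13 against EILP.WT and 0.01 and 0.04 against c-EILP.WT. The SR genes had medians of -0.77 and -0.91 against ALP.WT within the batches.

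Other gene lists differed between the same libraries. For scale, 7.86% of all genes tested fell and 5.56% rose in ILCP.WT against ALP.WT. The shares were 4.34% and 2.61% against EILP.WT, and 4.72% and 2.69% against c-EILP.WT. Of 20 listed cell cycle genes, 8 fell and 0 rose in ILCP.WT against ALP.WT (median -0.82), 1 fell against EILP.WT (median -0.16), and 2 rose and 2 fell against c-EILP.WT (median 0.40). Their summed level was 5353 and 6138 CPM in ILCP.WT, between 9551 and 10432 in ALP.WT, between 5337 and 7414 in EILP.WT and between 5868 and 6947 in c-EILP.WT. Of 6 T cell genes 3 rose against ALP.WT and 1 against c-EILP.WT. They summed to between 250 and 444 CPM in ILCP.WT, 153 and 258 in ALP.WT, 166 and 348 in EILP.WT and 332 and 452 in c-EILP.WT. Among them Cd3e was 4.16 and 3.67 in ILCP.WT and at the lowest value in all 3 ALP.WT libraries. Of 8 neutrophil and monocyte genes 1 fell against ALP.WT and 1 against EILP.WT. They summed to between 163 and 903 CPM in ILCP.WT, 1122 and 2182 in ALP.WT, 492 and 3973 in EILP.WT and 1219 and 2519 in c-EILP.WT. Of 5 dendritic cell genes 2 fell and 1 rose against ALP.WT, 1 fell and 1 rose against EILP.WT, and 1 fell and 2 rose against c-EILP.WT. They summed to 463 and 489 CPM in ILCP.WT, 1078 to 1557 in ALP.WT, 689 to 1721 in EILP.WT and 217 to 866 in c-EILP.WT. Of 5 mast cell and basophil genes 1 rose against ALP.WT (Cpa3), 1 fell against EILP.WT and 1 fell against c-EILP.WT. They summed to 312 and 90.05 CPM in ILCP.WT, 13.4 to 39.6 in ALP.WT, 581 to 824 in EILP.WT and 1126 to 1531 in c-EILP.WT. The 9 early response genes summed to 267 and 270 CPM in ILCP.WT and to at most 227 in the 13 others. Among the 7 tested there was 1 call, a rise of Ier2 against ALP.WT. Against ALP.WT 3 of the 7 were positive and 4 negative, with a median log2 difference of -0.33. Fos was at the lowest value in both ILCP.WT libraries, and Jun averaged 1.96 there against 5.09 in ALP.WT. The part of these lists, and of the mature natural killer genes given above, in the splicing factor differences was not tested.

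Lsm3 had the widest range of group means among the genes with no library at the lowest value. It lies at chr6:91515928-91522625, plus strand, 4 exons in its main transcript, and encodes a subunit of the Lsm rings, both the nuclear one on U6 and the cytoplasmic one of mRNA decay. Its log2 values were 8.09, 8.02 and 8.04 in ALP.WT, 6.94 and 7.01 in s-EILP.WT, 7.15, 6.44 and 6.92 in EILP.WT, 7.02 and 6.81 in EILP.KO, 6.66, 6.64 and 6.42 in c-EILP.WT, and 5.99 and 5.68 in ILCP.WT. ALP.WT lay above every other library, the 10 EILP libraries were between 6.42 and 7.15, and ILCP.WT was the lowest. The log2 difference was -1.25 (SE 0.204, adjusted p = 0.006) in EILP.WT against ALP.WT, -0.98 (SE 0.223, adjusted p = 0.0215) in ILCP.WT against EILP.WT and -2.23 (SE 0.223, adjusted p = 7.19e-05) in ILCP.WT against ALP.WT, a 4.69-fold lower level that passed under each of 11 alternative settings and without each library. In s-EILP.WT against ALP.WT it was -1.15 (SE 0.241, adjusted p = 0.0526) and did not pass, and in ILCP.WT against c-EILP.WT it was -0.71 (adjusted p = 0.0767). The annotated gene AC161456.1 on the same strand shares up to 23.4% of its exonic bases. The other 12 Lsm genes had no call in any comparison of 2 groups by limma. Lsm4, another ring subunit, ranged by 0.35 over the 6 group means.

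Tcf7 comes on between ALP.WT and EILP.WT, but the genotype differs as well, so strain and stage cannot be told apart. The same holds for s-EILP.WT against ALP.WT. In EILP.WT against ALP.WT, Lsm3 was the 1 of 63 that fell and 0 rose, where 1.50% of all genes tested fell and 1.71% rose. The median log2 difference was -0.08, against -0.01 over all genes. Without EILP.WT replicate 1 the count was 2, with Srsf7 as the second (-0.71 with all libraries). Srsf3 had the next lowest moderated t and was lower in all 3 EILP.WT libraries than in ALP.WT, but did not pass (-0.48 (SE 0.135, adjusted p = 0.0852)). Snrnp27 and Prpf4, both of the tri-snRNP, had the highest, 0.72 (SE 0.387, adjusted p = 0.392) and 0.48 (SE 0.29, adjusted p = 0.463), and their libraries overlapped. In s-EILP.WT against ALP.WT 0 of 63 passed by limma, where 0.803% of all genes tested passed. An unadjusted p under 0.05 by limma was found for 3 of the 63 and for 1148 of the 12572 genes tested. By moderated t, the log2 difference divided by its error, the lowest there besides Lsm3 was Prpf8, with a log2 difference of -0.87 (SE 0.278, adjusted p = 0.306), and the highest were Srsf11, 0.29 (SE 0.163, adjusted p = 0.665), and Prpf40b, whose ALP.WT values include 2 at the library's lowest. All s-EILP.WT libraries belong to batch 1.

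The comparison of EILP.KO with EILP.WT asks what a second lost Tcf7 allele changes, since both groups carry 1 null allele. Here 0 of 63 passed by limma, where 0.103% of all genes tested passed. An unadjusted p under 0.05 by limma was found for 4 of the 63 and for 1094 of the 12572 genes tested. The median log2 difference was 0.13 against 0.04 over all genes. Prpf8 (chr11:75486816-75509449, plus strand, 42 exons in its main transcript), the large protein at the catalytic centre of the spliceosome, stood out among the values. Its log2 values were 8.29, 8.29 and 8.04 in ALP.WT, 7.02 and 7.85 in s-EILP.WT, 8.03, 7.77 and 7.76 in EILP.WT, 6.62 and 6.54 in EILP.KO, 7.79, 7.79 and 8.0 in c-EILP.WT, and 8.11 and 7.35 in ILCP.WT. Both EILP.KO libraries were below the other 13, and s-EILP.WT replicate 1 was the next lowest. The log2 difference between EILP.KO and EILP.WT was -1.25 (SE 0.258, adjusted p = 0.152), and it was -1.28 within batch 1 and -1.21 within batch 2. Prpf4 was lower as well, -0.72 (SE 0.317, adjusted p = 0.558), with overlapping libraries. The highest by moderated t were Srsf2, 0.50 (SE 0.173, adjusted p = 0.476), which was above all EILP.WT libraries in both EILP.KO libraries, and Srsf7, 0.51 (SE 0.232, adjusted p = 0.57). All 20 cell cycle genes were positive in the same comparison, with 0 calls and 2 at an unadjusted p under 0.05 by limma, and the 8 neutrophil and monocyte genes summed to between 4256 and 5453 CPM in EILP.KO against 492 to 3973 in EILP.WT; their part was not tested.

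Between the Zbtb16high and Zbtb16low fractions of the EILP gate no call was made among the 63 genes. In c-EILP.WT against s-EILP.WT 0 of 63 passed by limma, where 0% of all genes tested passed. An unadjusted p under 0.05 by limma was found for 1 of the 63 and for 647 of the 12572 genes tested. The median was -0.02 for both the 63 and all genes. The highest by moderated t was Snrnp200, the helicase that unwinds the U4/U6 duplex, at 9.12, 8.36 and 8.63 in c-EILP.WT against 8.03 and 7.74 in s-EILP.WT, a log2 difference of 0.86 (SE 0.281, adjusted p = 0.72). Sf3b3 followed at 0.29 (SE 0.139, adjusted p = 1), and the lowest by the same measure were Snrpd3 and Snrpd1, with log2 differences of -0.35 (SE 0.187, adjusted p = 1) and -0.42 (SE 0.239, adjusted p = 1).

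**Figure D4:**
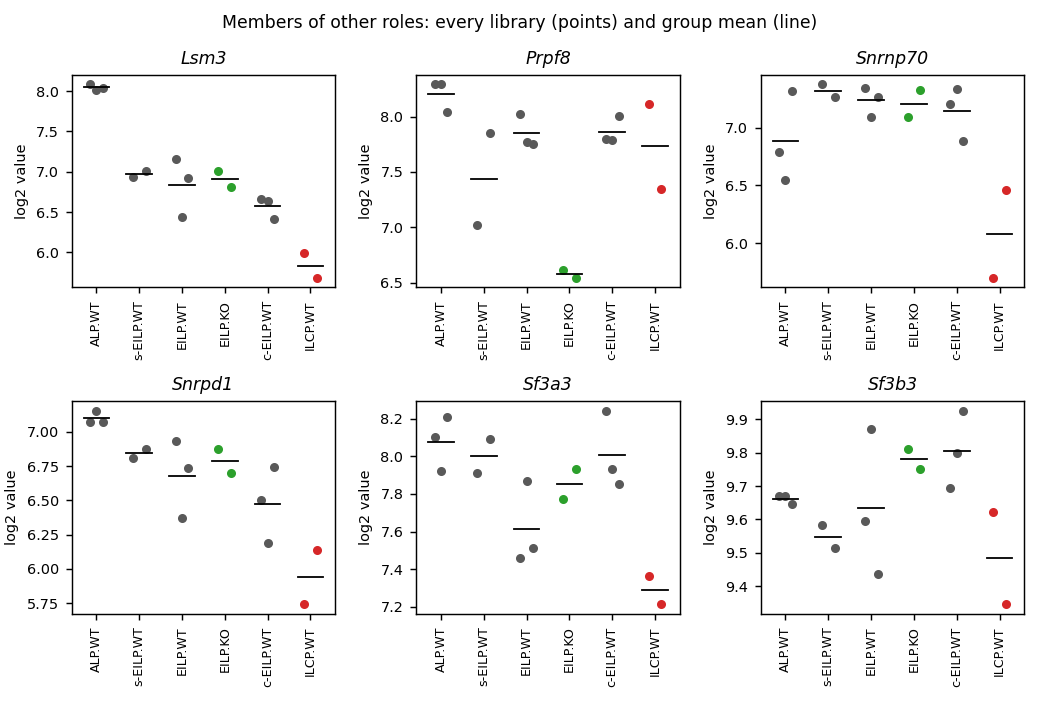
Log2 value of 6 genes from other roles in each library (points) of the 6 groups, with the group mean (line); each panel has its own vertical axis, ILCP.WT is red and EILP.KO green. Lsm3 is highest in the 3 ALP.WT libraries, Prpf8 lowest in the 2 EILP.KO libraries, and Snrnp70, Snrpd1 and Sf3a3 lowest in the 2 ILCP.WT libraries; Sf3b3 spans a small range.

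Tested over the 6 groups at once, 6 of the 63 genes differed by the moderated F test, where 8.36% of all genes tested did. They were Lsm3 (adjusted p = 0.00115), Srsf3 (0.00586), Srsf7 (0.0101), Srsf2 (0.0128), Prpf8 (0.0194) and Srsf11 (0.0203). The 6 are about as frequent among the 63 as among all genes.

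The range of the 6 group means, the highest minus the lowest, differed widely among the 63 genes. The widest were those of Prpf40b (6.45), Snrnp48 (5.35), Lsm14b (4.05), Lsm11 (3.79) and Lsm3 (2.21), and the first 4 of these have between 1 and 3 libraries at a library's lowest value. Lsm11, for example, was 5.09, 2.28 and -4.41 in the 3 EILP.WT libraries. The narrowest were those of Prpf18 (0.24), a factor of the second catalytic step, Lsm12 (0.28), Sf3b3 (0.32), Lsm10 (0.33) and Lsm4 (0.35). A narrow range of means did not go with a narrow spread of libraries in each case: Prpf18 ran from 6.47 to 7.56 and Lsm12 from 5.04 to 6.16. Sf3b3, the scaffold of SF3b, was between 9.35 and 9.93 in all 15 libraries. Per kilobase of transcript, mean log2 levels over the 15 libraries were highest for Snrpb (8.47), Srsf3 (8.18) and Snrpe (7.77), and lowest for Prpf40b (-0.42), Lsm11 (0.98) and Lsm14b (1.22). Near-identical copies, at 95% identity or more over at least 30% of the transcript, exist for 11 of the 63 genes, Srsf3 among them, and 15 share exonic bases with another gene.

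Splicing genes outside the name pattern were counted in the same way. Of 98 listed genes for hnRNP proteins, splicing helicases and regulators, 14 fell, 3 rose and 81 did not pass against ALP.WT, where 7.86% of all genes tested fell and 5.56% rose, and the median log2 difference was -0.36. Against EILP.WT 10 fell and 1 rose (4.34% and 2.61% of all genes; median -0.30), and against c-EILP.WT 14 fell and 0 rose (4.72% and 2.69%; median -0.34). The differences were positive for 26, 26 and 24 of the 98. Hnrnpa1, an abundant repressor that competes with SR proteins for exons, was 7.54 ± 0.24 in ILCP.WT (SD, n = 2) and 9.15 ± 0.14 in ALP.WT (SD, n = 3), a log2 difference of -1.61 (SE 0.164, adjusted p = 7.75e-05). It was -1.56 against EILP.WT and -1.50 against c-EILP.WT. U2af1, the subunit that reads the 3′ splice site, was 5.96 ± 0.02 (SD, n = 2) against 7.33 ± 0.06 (SD, n = 3), a difference of -1.37 (SE 0.197, adjusted p = 0.000944), with -1.18 and -1.07 in the other two comparisons. Qk, a regulator of alternative exons, fell by 1.50 against EILP.WT and by 1.26 against c-EILP.WT. Pnn, a protein of exon junctions, fell by 1.23 against EILP.WT. Hnrnpll, an hnRNP known for exon choice in activated lymphocytes, rose by 1.81 against ALP.WT (SE 0.303, adjusted p = 0.00248) and by 1.40 against EILP.WT. The other two that rose against ALP.WT, named after their values were seen, were Dhx38, a splicing helicase, and Srpk1, a kinase of SR proteins, at 1.37 and 0.98. None of the 98 passed by limma in the other 4 comparisons, with 7 at an unadjusted p under 0.05 in EILP.WT against ALP.WT, 5 in EILP.KO against EILP.WT, 3 in s-EILP.WT against ALP.WT and 0 in c-EILP.WT against s-EILP.WT. Of the 12572 genes tested, 2072, 1094, 1148 and 647 had such an unadjusted p in the same order.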

How the data were processed

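Messenger RNA of 15 libraries was sequenced after SMARTer Ultra Low Input and Nextera XT preparation, per the labels. Listed in the submitters' processing notes, without their roles, are mm10, limma, RSEM 1.2.23, STAR 2.5.2b and bcl2fastq 2.17. The authors deposited 1 table of log2 values for 12798 genes; from the values these are CPM, quantile-normalised across libraries, so read depth per library is not given in the sources used here. Another 24 columns were not used. limma 3.58.1 (R 4.3.3), with an intensity trend and terms for group and batch, took in the 15 libraries and the 12572 genes at log2 0 or more in at least 2 of them, and checked on simulated data. Calls used Benjamini-Hochberg adjusted p under 0.05 over all genes. Called genes were named up to the 12 with the smallest p in a comparison, with the extremes of moderated t elsewhere and the 5 widest and narrowest ranges. Sf3a1 falls outside this rule and was named after its values were seen. So were some genes without a call, among them Prpf19, Prpf39, Srsf6, Snrpb and Sf3b1. Positions, lengths and copies came from GENCODE and upstream sequence from RefSeq. The members and lists were chosen with earlier results of these data known. Alternatives were 11 settings and each library left out. The values of 2 genes are not reported here, and 1 of them is left out of the figures that show all members; both were kept in the fits and counts.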

Additional observations from a re-analysis of the deposited data

How the results depend on the processing

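The direction of the median difference of the 63 genes held under all 11 settings and with each library left out in 6 of the 7 comparisons; in c-EILP.WT against s-EILP.WT (median -0.02) it was 0.0119 with only the 2 groups fitted, 0.0119 in batch 1 alone, and between -0.0591 and 0.0119 with 1 library left out. Counts of calls moved more. In ILCP.WT against EILP.WT (7 calls) there were 4 with the replicate number as a block, 1 without the variance trend, 0 with library quality weights, 2 after cyclic loess, 0 with only the 2 groups fitted, 4 in batch 1 alone, and between 1 and 7 with 1 library left out. In ILCP.WT against c-EILP.WT (9 calls) there were 5 with the block, 2 without the trend, 5 with quality weights, 5 after cyclic loess, 0 with only the 2 groups fitted, and between 4 and 8 with 1 library left out. In ILCP.WT against ALP.WT (15 calls) there were 9 without the trend, 3 with only the 2 groups fitted and 3 in batch 1 alone, where Lsm3 and Lsm14b fell and Prpf40b rose. The F test (6 calls) gave 1 without the trend and 1 in batch 1 alone. EILP.WT against ALP.WT (1 call) gave 0 with only the 2 groups fitted, 0 in batch 1 alone, and between 1 and 2 with 1 library left out; s-EILP.WT against ALP.WT (0 calls) gave 1, Lsm3, without the batch term, with quality weights, with the stricter filter and with a pseudocount of 1. Fits of fewer libraries have fewer residual degrees of freedom; the cause of the other changes was not tested. Replicate numbers did not pair the libraries: same-numbered libraries of different groups had correlations of their deviations between -0.07 and 0.05, and 5 of 15 lay closest to a library of their own number. The replicate block left 13, 1 and 5 calls in ILCP.WT against ALP.WT, in EILP.WT against ALP.WT and in the F test. Groups of 2 or 3 libraries and the absence of read counts limit the precision.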

Other observations

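The 2 ILCP.WT libraries, which come from different batches, differed most from each other in 6 of the 63 genes. Lsm14b was at the lowest value in replicate 1 and 4.14 in replicate 2, while its relative Lsm14a was 7.40 and 7.30. Snrnp48 was 2.24 in replicate 1 and at the lowest value in replicate 2, Prpf39 was 6.45 and 2.07, Sf3a1 7.62 and 6.01, Srsf6 8.41 and 7.02, and Snrnp25 5.32 and 3.94. Prpf40b was at the lowest value in 2 of 3 ALP.WT libraries and in EILP.WT replicate 3.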
